A study of Mus musculus with 28 samples.

Results

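The regions described here are wide stretches of the mouse genome that lay in no H3K9me2 domain in any deposited condition. They were found from the domain positions alone. On chromosomes 1 to 19, and between the first and the last domain of each chromosome, every base was kept that lay in none of the 5 deposited domain sets, and runs of at least 200 kb were retained. This gave 962 regions among 4752 such runs of any width and among 25179 runs of all kinds into which the 5 sets cut these chromosomes. The 962 regions covered 469.7 Mb, 19.6% of the 2400 Mb between first and last domains. Their widths had a median of 360 kb, with quartiles of 260 and 569 kb and a highest value of 3939.99 kb. That a region held no domain was the rule and is no finding, and all comparisons of domain positions below are descriptions without a test.

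H3K9me2 was profiled by ULI-NChIP, in which native, uncrosslinked chromatin from few cells is immunoprecipitated, in 14 ChIP and 14 input libraries. All libraries came from KH2 mouse embryonic stem cells (mESCs) of a BL6/129 hybrid strain, grown on feeder cells, in which both alleles of endogenous Ehmt2 end in the degron FKBP12F36V, 2 HA tags, P2A and a nuclear mCherry. The degrader dTAG-13 removes the tagged protein and DMSO is its solvent control. Sorted libraries came from a clone with a MERVL-GFP reporter, which was sorted after 72 h: cells without GFP are called mESCs, and cells with GFP, in a rare state resembling the 2-cell embryo, 2CLCs. Each of mESC DMSO, mESC dTAG, 2CLC DMSO and 2CLC dTAG had 3 ChIP and 3 input libraries, and unsorted mESCs kept in DMSO for 24 h had 2 and 2. The labels place TTNBP, a retinoic acid receptor agonist, in 2 of the replicates without saying which, and the study's methods give no such limit. The deposited sets hold positions only, so the cell states could not be checked against marker genes, and no set carries a depth or values for single replicates. The name of the fifth set gives neither cell state nor treatment. It is called the unnamed set below and was assigned to no group.

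H3K9me2 is a histone modification of transcriptionally quiet chromatin that EHMT2 and its partner EHMT1 deposit, and in stem cells it covers megabase-scale blocks. Between these blocks lie stretches rich in active genes. The mouse genome is uneven along its chromosomes, with GC-rich and gene-rich segments next to AT-rich segments that hold few genes and many transposon copies, and CpG dinucleotides are rare outside CpG islands, the CpG-dense stretches at the starts of many broadly expressed genes.

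To show the kind of sequence at hand, the 200 bases before a gene start are given for the protein-coding gene nearest to the midpoint of each of the 3 widest regions, read 5′ to 3′ along the gene from GRCm38.p6. Windows that touched an annotated exon were passed over in favour of the next gene. Lower case is used throughout except for CG dinucleotides, which are in capitals. Eif4g3 encodes a scaffold factor of translation initiation, Hoxb2 a homeodomain factor of hindbrain patterning, and Grik3 a kainate receptor subunit.
Eif4g3, chr4:137992822-137993021, plus strand: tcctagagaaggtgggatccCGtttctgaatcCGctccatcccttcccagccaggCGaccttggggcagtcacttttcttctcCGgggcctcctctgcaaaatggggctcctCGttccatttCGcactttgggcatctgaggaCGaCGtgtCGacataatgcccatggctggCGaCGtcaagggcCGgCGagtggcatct
Hoxb2, chr11:96350325-96350524, plus strand: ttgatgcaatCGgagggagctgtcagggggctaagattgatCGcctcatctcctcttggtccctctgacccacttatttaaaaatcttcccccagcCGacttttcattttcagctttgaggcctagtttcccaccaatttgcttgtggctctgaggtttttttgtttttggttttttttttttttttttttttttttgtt
Grik3, chr4:125490500-125490699, plus strand: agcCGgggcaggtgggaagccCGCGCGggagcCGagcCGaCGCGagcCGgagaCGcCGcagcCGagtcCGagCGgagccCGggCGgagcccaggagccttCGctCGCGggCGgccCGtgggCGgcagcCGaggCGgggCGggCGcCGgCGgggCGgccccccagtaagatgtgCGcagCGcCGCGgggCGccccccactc

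For contrast, the same window is given for 2 of the 3 widest runs that lay in a domain in all 5 sets. Vmn2r37 belongs to a family of pheromone receptors, and Gm8281 is a gene model without a given name.
Vmn2r37, chr7:9223654-9223853, minus strand: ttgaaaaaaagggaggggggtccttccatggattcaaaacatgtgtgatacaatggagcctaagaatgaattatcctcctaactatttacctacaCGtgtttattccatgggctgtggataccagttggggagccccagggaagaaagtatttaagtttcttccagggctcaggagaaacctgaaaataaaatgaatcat
Gm8281, chr14:5070840-5071039, plus strand: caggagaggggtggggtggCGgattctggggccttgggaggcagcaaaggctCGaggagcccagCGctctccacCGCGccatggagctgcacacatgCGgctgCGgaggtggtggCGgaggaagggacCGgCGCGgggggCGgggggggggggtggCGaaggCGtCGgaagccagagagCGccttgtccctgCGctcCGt

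The window of Grik3 held 34 CG dinucleotides, that of Eif4g3 13 and that of Hoxb2 3. The window of Vmn2r37 held 1, but that of Gm8281 held 18, so single windows of the 2 classes overlapped. Over all windows free of annotated exons, the median was 9 CG dinucleotides for the 7259 genes that started in the wide regions and 1 for the 1416 genes that started in runs of at least 200 kb shared by all 5 sets. At least 10 CG dinucleotides were found in 49.7% of the former windows and in 3.39% of the latter, compared with 37.6% of all 17156 windows. The domain-free runs under 200 kb were much like the wide regions, with a median of 10 and 52.0% of windows at 10 or more. Windows without any CG dinucleotide made up 3.499% in the wide regions and 4.08% in the narrower domain-free runs. In the runs of at least 200 kb shared by all 5 sets they made up 40.5%, against 11.0% of all windows.

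Domain positions in the 5 sets differed widely around these regions. In each set, a region lay inside a domain-free gap at least as wide as itself, as the plot of gap widths shows, except that 9 regions in mESC DMSO, 8 in 2CLC DMSO and 4 in the unnamed set lay beyond the first or last domain of that set and had no gap there. The median gap around a region was 1750 kb in mESC DMSO and 1870 kb in 2CLC DMSO, and 810 kb in mESC dTAG and 570 kb in 2CLC dTAG. In the unnamed set it was 760 kb. The gap was therefore a median of 4.03 times as wide as the region in mESC DMSO and 4.44 times in 2CLC DMSO, 1.83 times in mESC dTAG and 1.19 times in 2CLC dTAG. The 962 regions fell into 512 separate gaps of mESC DMSO, 502 of 2CLC DMSO, 752 of mESC dTAG, 875 of 2CLC dTAG and 674 of the unnamed set. Several neighbouring regions thus shared a single gap of the DMSO sets.

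**Figure D1:**
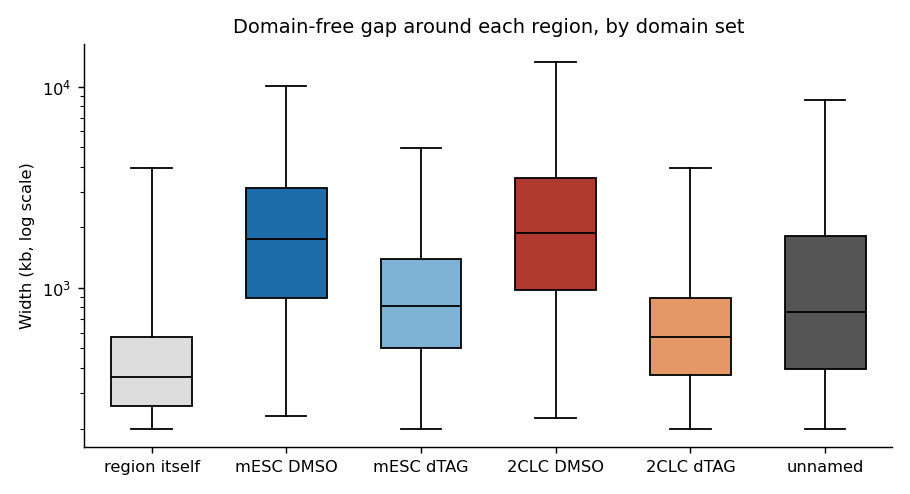
Width in kb, on a log scale, of the 962 regions and of the domain-free gap that contains each of them in each domain set, leaving out 9 regions without a gap in mESC DMSO, 8 in 2CLC DMSO and 4 in the unnamed set. Boxes span the quartiles with a line at the median, and whiskers reach the lowest and highest values. The medians are 360 kb for the regions, 1750 and 1870 kb in the DMSO sets, and 810 and 570 kb in the dTAG sets.

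Compared region by region, the gap in mESC dTAG was narrower than in mESC DMSO for 781 of 953 regions and wider for 161, with a median difference of -770 kb. In 2CLCs the dTAG gap was narrower for 864 of 954 regions and wider for 81, with a median difference of -1135 kb. The median difference was below 0 on 19 of 19 chromosomes in both cell states, ranging from -1670 to -115 kb in mESCs and from -3230 to -460 kb in 2CLCs. Regions that share a gap are not independent, and the gaps come from the positions that the rule used. dTAG domains bounded more edges than DMSO domains, so the direction of these differences follows in part from the rule and is no finding about treatment. Of the 945 regions with a gap in all 4 sorted sets, 691 (73.1%) had both DMSO gaps wider than both dTAG gaps, and 28 (2.96%) had the opposite order. Between cell states, the DMSO gaps differed by a median of 25 kb, with 2CLC wider for 525 and narrower for 405 of 945 regions. The dTAG gaps differed by a median of -75 kb, with 2CLC narrower for 689 and wider for 211 of 962. The number of domains moved with these gaps, since the DMSO sets held 3870 domains each on these chromosomes, mESC dTAG 6770 and 2CLC dTAG 8281, although the 2 dTAG sets covered fewer bases (1099 and 1150 Mb) than the DMSO sets (1290 and 1224 Mb). This order of medians held for gaps around the wide regions and not for gaps at large. The former medians count a gap once for each region inside it and the latter count each gap once, so the 2 are not alike. Over all gaps between neighbouring domains, the median width was 50 kb in both DMSO sets, 65 kb in mESC dTAG and 55 kb in 2CLC dTAG, and gaps of at least 200 kb numbered 1062 in mESC DMSO, 1097 in 2CLC DMSO, 1758 in mESC dTAG and 1831 in 2CLC dTAG. With a single set per condition, the spread between replicates is unknown. Domains were called from percentiles of the ChIP over input ratio, so their positions do not give levels of H3K9me2. The paper reports that these levels fell after EHMT2 depletion.

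The edges are set by the rule. A region ends where the nearest domain of any set begins. Of the 1924 edges, 1311 (68.1%) had a domain of a single set within 5 kb, which is the width of a bin, and 9 (0.468%) had a domain of all 5 sets. The unnamed set alone held the domain at 652 edges (33.9%) and 2CLC dTAG alone at 479 (24.9%). mESC dTAG alone accounted for 112 edges, mESC DMSO alone for 35 and 2CLC DMSO alone for 33. For 224 regions both edges were those of a single 2CLC dTAG gap, for 174 those of an unnamed set gap and for 68 those of an mESC dTAG gap, but this held for only 4 and 2 regions in mESC DMSO and 2CLC DMSO. Counting shared edges too, 2CLC dTAG had a domain within 5 kb of 53.1% of edges and the unnamed set of 41.3%, against 30.7% for mESC dTAG, 8.42% for 2CLC DMSO and 7.69% for mESC DMSO.

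Domains beyond the edges thinned out quickly in the dTAG sets and not in the DMSO sets. Each edge lies at the nearest domain of any set, and dTAG domains bounded more edges than DMSO domains. The shares close to an edge therefore follow in part from the rule and are no finding about treatment. At 22.5 kb outside an edge, 44.4% of positions lay in a 2CLC dTAG domain and 31.0% in an mESC dTAG domain, and at 102.5 kb these shares were 18.3% and 14.2%. In mESC DMSO the share was 10.1% at 22.5 kb and 13.4% at 102.5 kb, and in 2CLC DMSO 11.5% and 12.1%. At 502.5 kb the 4 sorted sets lay between 20.8% and 24.9%, below the 45.8% to 53.7% of the whole span that their domains covered. Neighbouring regions on the same chromosome lay a median of 360 kb apart. Positions at 502.5 kb can therefore lie inside another region, where the rule allows no domain. The lower shares at this distance thus also follow in part from the rule, and the size of that part was not tested.

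**Figure D2:**
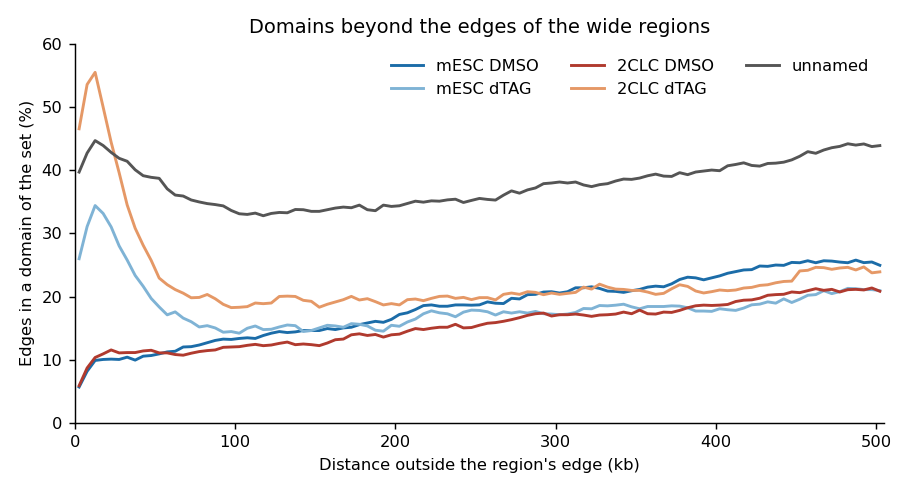
Share of positions (%) that lay in a domain of each set, against the distance in kb outside the edges of the 962 regions. The lines of both dTAG sets peak within the first 25 kb and fall, from 44.4% at 22.5 kb to 18.3% at 102.5 kb in 2CLC dTAG, while those of the DMSO sets stay between 10.1% and 13.4% at these distances. Edges lie at the nearest domain of any set, so values close to the edge depend on which sets bound it.

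Many regions were separated from the next by little. Of 943 pairs of neighbours on the same chromosome, 220 (23.3%) were at most 50 kb apart, and a domain of 2CLC dTAG lay in 176 of these separators, of mESC dTAG in 97, of the unnamed set in 39, of mESC DMSO in 21 and of 2CLC DMSO in 14. In 77 of them 2CLC dTAG was the only set with a domain. These 77 separators had a median width of 20 kb, 42.5% soft-masked bases and 12.5% repeated 50-mers (50-base words with another copy on that chromosome and strand), compared with 26.9% and 2.65% inside the wide regions. The 28 separators that only the unnamed set provided had 27.4% soft-masked bases and 2.08% repeated 50-mers. Soft-masked bases are those the assembly marks as interspersed or simple repeats.

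The sequence step at the edges was small in GC content and large in repeats. In the first 25 kb outside the edges 35.3% of bases were soft-masked, against 26.6% in the first 25 kb inside, and GC content was 45.2% and 45.7%. The step in repeats differed with the set that held the bounding domain, and among the groups of edges given here it was smallest for the unnamed set alone. At the 342 edges of both dTAG sets and no other, soft-masked bases made up 43.9% outside and 27.3% inside, at the 479 edges of 2CLC dTAG alone 38.1% and 28.0%, at the 112 edges of mESC dTAG alone 38.0% and 28.2%, at the 260 edges with a domain of either DMSO set, alone or shared, 40.8% and 27.3%, and at the 652 edges of the unnamed set alone 26.0% and 24.5%. Repeated 50-mers moved with this, at 15.7% outside and 2.47% inside for the edges of both dTAG sets, 14.0% and 3.01% for those of either DMSO set, and 2.86% and 2.04% for those of the unnamed set. Reads from repeated sequence are placed less surely than others, and the part of this in the domain calls was not tested. Protein-coding starts fell from 981 in the inner to 629 in the outer windows, over 1924 windows each.

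**Figure D3:**
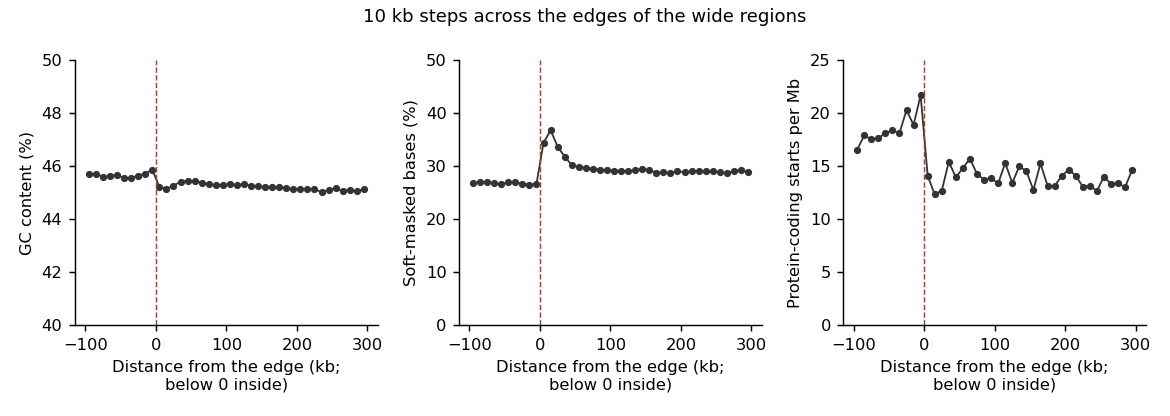
GC content (%), soft-masked bases (%) and protein-coding starts per Mb in 10 kb steps from 100 kb inside to 300 kb outside the edges, over up to 1924 windows a step; the dashed line is the edge. Soft-masked bases rise from 26.6% in the last step inside to 36.7% in the second step outside and return to 29.4% at 75 kb, while GC content stays between 45.0% and 45.9%.

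Base composition and gene content were not used by the rule. GC content was 46.4% in the wide regions (lowest chromosome 44.6%, highest 47.8%), 44.1% in domain-free runs under 200 kb, 42.0% in bases that lay in a domain of some sets, and 38.3% in runs of at least 200 kb in all 5 sets. CpG dinucleotides occurred at 12.5 per kb in the wide regions, 11.3, 8.32 and 5.33 per kb in the other 3 classes. The wide regions were the higher in GC content and in CpG density on 19 of 19 chromosomes against each of the other 3. Soft-masked bases made up 26.9%, 25.1%, 29.3% and 45.3% in the same order, so that the wide regions exceeded the narrower domain-free runs on 18 of 19 chromosomes and fell below the other 2 classes on 19 of 19. Repeated 50-mers made up 2.65%, 2.50%, 6.64% and 13.4%. Runs under 200 kb in all 5 sets, 17.2% of the span, form a further class that was left out of these comparisons. They had 39.2% GC, 6.14 CpG per kb, 42.1% soft-masked bases and 11.8% repeated 50-mers. The SD over the 19 chromosomes within the wide regions was 1.04 percentage points for GC content, 0.859 per kb for CpG and 0.734 percentage points for soft-masked bases. Chromosomes are not replicates of an experiment, and no test was made.

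The 962 regions ranged from 36.7% to 53.8% GC with quartiles of 43.7% and 47.9%, while the 1105 runs of at least 200 kb in all 5 sets ranged from 35.3% to 44.6% with quartiles of 37.2% and 39.2%. Only 6 of the 962 had a GC content under the median of those runs (38.1%), and 21 were under 40%. Wider regions were somewhat richer in GC, from a median of 44.7% for 365 regions of 200 to 300 kb to 47.9% for 75 regions of at least 1000 kb (Spearman's rho of width and GC content 0.285 over 962 regions, which share chromosomes and assembly). Protein-coding starts per Mb rose from 17.1 to 23.9 over the same width classes. In domain-free runs of 100 to 200 kb, outside the width rule, median GC content was 44.3% with 15.4 starts per Mb. Runs of 50 to 100 kb had 15.0 starts per Mb, but runs under 50 kb had 17.6. Start density thus did not rise with width throughout.

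Gene starts were dense in the wide regions. Of the 20807 protein-coding genes on chromosomes 1 to 19, 9396 (45.2%) started in these regions, which made up 19.6% of the span, and 12569 (60.4%) started in a domain-free run of any width. This amounts to 20.0 protein-coding starts per Mb, with a range of 13.8 (chromosome 13) to 27.5 (chromosome 7), compared with 15.7 in narrower domain-free runs, 6.07 in bases in a domain of some sets and 3.52 in the wide runs of all 5 sets. The wide regions were denser in starts than the narrower domain-free runs on 17 of 19 chromosomes. Against bases in a domain of some sets and against the wide runs of all 5 sets they were denser on 19 of 19. Of the 962 regions, 934 (97.1%) held at least 1 protein-coding start and 297 held 10 or more, with a median of 6. Of the 1105 wide runs of all 5 sets, 816 (73.8%) held none. Gene bodies covered 67.3% and exons 9.07% of the wide regions, 69.7% and 8.04% of the narrower domain-free runs, and 12.2% and 1.15% of the wide runs of all 5 sets, against 41.3% and 3.85% of the whole span.

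Most genes that started in these regions also ended in them. Of the 9396 genes, 8875 (94.5%) lay wholly inside their region, with a median length of 16.3 kb. The 521 that crossed an edge had a median of 67.3 kb. A longer gene crosses an edge more easily, so this contrast is no trait of the regions. Over all 9396 genes the median length was 17.4 kb, against 17.6 kb for all protein-coding genes. The longest genes wholly inside were Agap1 (442.8 kb), Rbfox3 (421.8 kb), a neuronal splicing factor, Msi2 (379.1 kb), an RNA-binding protein, and Ksr2 (361 kb). A CpG-rich start, defined as at least 50% GC and an observed to expected CpG ratio of at least 0.6 in the 500 bases centred on the start, was found for 5847 genes (62.2%) of the wide regions, 65.3% of the narrower domain-free runs, 37.8% of bases in some sets and 3.78% of the wide runs of all 5 sets, against 48.8% of all protein-coding genes. Divergent pairs, with starts on opposite strands pointing away from each other within 1 kb, took in 10.0% of the genes of the wide regions, 10.5% of those of the narrower domain-free runs and 0.275% of those in the wide runs of all 5 sets, against 6.97% of all protein-coding genes. Both traits were thus shared with the narrower domain-free runs.

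Chromosomes differed in how much of them fell into these regions. Chromosome 11 had the highest share, 38.7% of its span and 65.4% of its protein-coding starts, followed by chromosome 19 with 30.8% and 59.4% and chromosome 9 with 29.1% and 53.5%. Chromosome 3 had the lowest share of its span (8.19%), and chromosome 13 the lowest share of its starts (19.1%). Over the 19 chromosomes the share of the span followed its GC content (rho 0.875) and its protein-coding starts per Mb (rho 0.839), given as a description. The regions also lay towards the distal ends, away from the centromere, which mouse chromosomes carry at their start. With each span divided into 5 equal parts, the wide regions covered 12.9% of the first, 13.7% of the second, 17.5% of the third, 24.0% of the fourth and 29.8% of the last, and GC content was 41.4%, 41.3%, 41.4%, 41.9% and 43.8% in these.

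**Figure D4:**
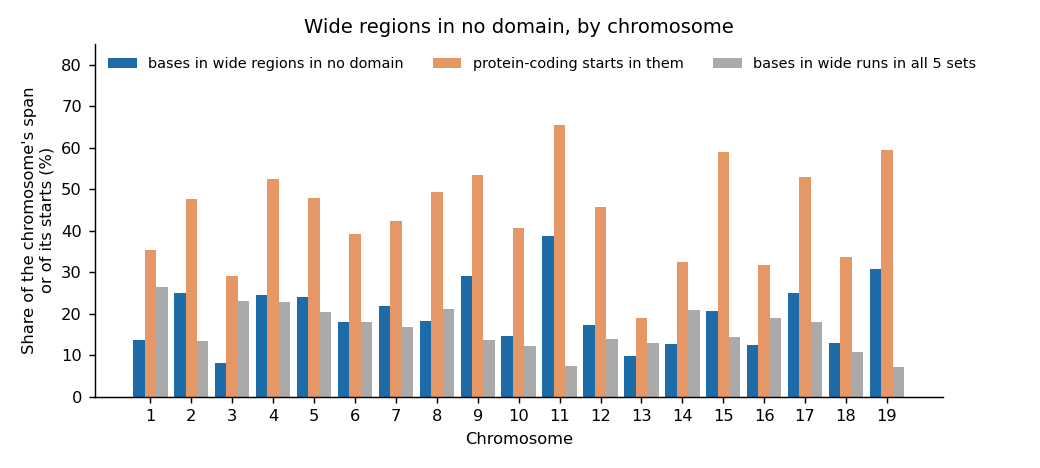
Share (%) of each chromosome's span in the wide regions (blue), of its protein-coding starts in them (orange) and of its span in runs of at least 200 kb in all 5 sets (grey), with chromosomes on the horizontal axis. Chromosome 11 has the highest blue and orange bars, at 38.7% and 65.4%, and chromosome 3 the lowest blue bar, at 8.19%.

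Of the 10 widest regions, 4 were on chromosome 4 and 3 on chromosome 11. The widest, chr4:135999437-139939431 in mm10, spanned 3939.99 kb with 49.3% GC and 66 protein-coding starts. Around its midpoint started Rap1gap, a regulator of the GTPase RAP1, Alpl, the tissue-nonspecific alkaline phosphatase that is a marker of mESCs, Ece1, an endothelin-processing protease, Eif4g3, Hp1bp3, a heterochromatin protein 1 binding protein, Sh2d5, Kif17, a kinesin, and Ddost, a subunit of the oligosaccharyl transferase. The gap around it was 10045 kb in mESC DMSO, 13195 kb in 2CLC DMSO, 3939.99 kb in 2CLC dTAG, 4470 kb in mESC dTAG and 8575 kb in the unnamed set. The 2CLC dTAG domains thus set both of its edges. The DMSO gaps also held the seventh widest region, chr4:131685271-133909439 (2224 kb, 49 starts), with Eya3, a phosphatase and transcriptional coactivator, Rpa2, a subunit of replication protein A, and Ppp1r8.

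The next widest, chr11:94634708-98059703, was 3425 kb wide and held 87 protein-coding starts, the highest number of all 962 regions. Its centre was the Hoxb cluster, with Hoxb1 to Hoxb8 the 8 genes nearest to the midpoint. Gaps were 5030 kb in mESC DMSO, 5865 kb in 2CLC DMSO, 3425 kb in 2CLC dTAG, 4770 kb in mESC dTAG and 5610 kb in the unnamed set. The third, chr4:124515277-126984448 (2469 kb, 43 starts), held Grik3, Csf3r, the receptor of granulocyte colony-stimulating factor, Mrps15, a protein of the mitochondrial ribosome, Oscp1, Lsm10, Stk40, Eva1b and Sh3d21. The fourth, chr5:113406143-115766139 (2360 kb, 57 starts), held Mvk, mevalonate kinase, Mmab, Trpv4, a calcium channel, and Git2.

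The remaining widest regions were of 1905 to 2295 kb. On chromosome 4, chr4:147879422-150174418 (44 starts) held Casz1, a zinc finger factor, Pex14, a peroxisomal import protein, Kif1b, and Pgd, an enzyme of the pentose phosphate pathway. On chromosome 1, chr1:134550603-136785600 (33 starts) held Ipo9, Nav1 and the troponin genes Tnni1 and Tnnt2, and its edges were those of an unnamed set gap of the same width. chr11:76874732-78984728 (53 starts) held Flot2, Phf12, Eral1 and Sez6, and chr11:118394677-120299673 (28 starts) held Gaa, the lysosomal alpha-glucosidase, Eif4a3, a component of the exon junction complex, and Sgsh. chr2:90623503-92533500 (40 starts) held Lrp4, Ckap5, a microtubule polymerase, F2, which encodes prothrombin, and Atg13, an autophagy factor. These genes cover ubiquitous and tissue-restricted functions, and no expression was measured in these files.

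After the Hoxb region, the most protein-coding starts were found in chr17:23826983-25701980, with 85 in 1875 kb, which held Rps2 and Ndufb10, a subunit of respiratory complex I. chr11:68519743-70114740 held 80 starts in 1595 kb, with Chd3, a subunit of the NuRD remodelling complex, and Naa38 near its midpoint. chr9:107211482-109036478 held 74 in 1825 kb, with Bsn, a presynaptic scaffold protein, and Ip6k1, but N made up 2.74% of its bases. chr10:79749895-80969893 held 74 in 1220 kb, with Mbd3, a further NuRD subunit, and Uqcr11, and had the highest GC content of all regions, 53.8%. Other regions of high GC content lay on chromosome 17 (52.4% and 52.3%) and chromosome 8 (52.8%). Those on chromosome 17 held Ticam1 and Dpp9 in chr17:55961940-56476939, and Hmga1 and Rps10 in chr17:27391978-27691977.

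At the other end, the 5 regions of lowest GC content held at most 1 protein-coding start each. chr15:39443685-39668683 (225 kb, 36.7% GC) held no gene start of any kind and lay wholly inside Rims2, a presynaptic gene of 486.1 kb. chr19:27767313-28012312 (37.4% GC) held 1 protein-coding start, that of Rfx3, a factor of ciliogenesis, and likewise chr1:157140584-157425583 (37.7%) held that of Rasal2, chr1:160449996-160809994 (37.9%) that of Rabgap1l, and chr4:109709472-109989471 (37.9%) that of Dmrta2. Gene bodies covered 92.9% to 100% of these regions. In Rims2 the gap was 580 kb in mESC DMSO, 240 kb in 2CLC DMSO, 240 kb in 2CLC dTAG, 315 kb in mESC dTAG and 420 kb in the unnamed set.

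Only 28 regions (2.91%) held no protein-coding start, and 8 held no gene start of any kind. Of the 28, 12 lay wholly inside a single protein-coding gene, 22 were covered by gene bodies over at least 50% of their bases, and 5 touched none. Their median GC content was 43.9%. The widest were chr8:108573970-108963968 (390 kb) over Zfhx3, chr10:28119964-28489963 (370 kb) in Ptprk, a receptor tyrosine phosphatase, chr18:69344994-69684523 (339.5 kb) in Tcf4, a basic helix-loop-helix factor, chr1:91870640-92195639 (325 kb) reaching into Hdac4, and chr3:127180092-127475090 (295 kb) in Ank2, which encodes ankyrin B. The other genes that contained such a region were Arl15, Fry, Nfib, Pard3, Pde4d, Ptprg, Rims2, St6galnac3 and Tiam1. The gap in Tcf4 was 340 kb in mESC DMSO, 395 kb in 2CLC DMSO, 645 kb in 2CLC dTAG, 920 kb in mESC dTAG and 340 kb in the unnamed set, so that here the dTAG gaps were the wider ones.

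Families of genes were then located, by the place of their starts, against the 45.2% of all protein-coding genes. Of 23 lists, 13 had a higher and 10 a lower share in the wide regions, as the plot of gene lists shows. Genes for basic cell functions lay high. Of 13 genes of RNA polymerase II subunits, 12 started in wide regions, among them Polr2a, which encodes the catalytic subunit, and only Polr2k lay elsewhere, in a narrower domain-free run. Of 73 cytosolic ribosomal protein genes 54 (74.0%) started in 51 wide regions, such as Rpl31, Rpl12, Rpl35, Rps21, Rps3a1 and Rps27. The counts were 28 of 39 for splicing factors (Snrpe, Srsf6, Prpf6), 28 of 39 for the proteasome list (Psmd1, Psmd5, Psmb7), 34 of 52 for translation initiation factors (Eif5b, Eif2d, Eif3j1), 13 of 20 for tRNA synthetases (Sars, Yars, Cars) and 47 of 78 for mitochondrial ribosomal proteins (Mrpl30, Mrps14, Mrpl41). The lists rest on symbol prefixes in part, so that the proteasome list includes Psmc3ip, which is no proteasome subunit. Psmd6, a lid subunit, was the only gene of these 7 lists that started in a domain of all 5 sets, on chromosome 14. Together the 7 lists touched 169 of the 962 regions.

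Developmental regulators had mixed counts. All 39 Hox genes started outside every domain, 30 of them in 3 wide regions. These were the 11 Hoxa genes in chr6:51672276-52322274 (650 kb), the 10 Hoxb genes in the region described above and the 9 Hoxc genes in chr15:102628600-103553598 (925 kb), whereas the 9 Hoxd genes lay in narrower domain-free runs. Of 19 Wnt ligand genes 16 (84.2%) started in wide regions, including Wnt1 and Wnt10b in the same region, Wnt3a and Wnt9a, and Wnt4 in the widest region of all, and Wnt2, Wnt16 and Wnt5a started in bases that lay in a domain of some sets. The Fox list had 23 of 43 (Foxs1, Foxe1, Foxd2) and includes Foxred1 and Foxred2, which are no forkhead factors. Homeodomain, paired-box and T-box factors of the Pax, Lhx, Dlx, Irx, sine oculis, Nkx and Tbx families had 30 of 61 (Lhx3, Lhx2, Dlx1, Dlx2, Pax5, Pax7) and Sox factors 8 of 18 (Sox13, Sox12, Sox18), close to the share of all genes.

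Pluripotency genes started in wide regions in 14 of 25 cases. Nanog and Dppa3 shared chr6:122402215-122887214 (485 kb), where the gap was 605 kb in mESC DMSO, 610 kb in 2CLC DMSO, 620 kb in 2CLC dTAG, 595 kb in mESC dTAG and 485 kb in the unnamed set, so that the 4 sorted gaps differed by no more than 5 bins. Esrrb lay in chr12:86072176-87142012 (1070 kb) and Prdm14 in chr1:12780708-13400706 (620 kb). Sox2, Pou5f1, Lin28a, Utf1, Tcl1 and Epcam started in narrower domain-free runs, and Klf4, Zfp42, Nr5a2, Dppa2 and Dppa4 in bases in a domain of some sets. Among 26 genes of H3K9 methylation and its readers and erasers, 15 started in wide regions, with Ehmt1, Kdm1a, Zfp644, Cbx3, Kdm4d and Jmjd1c the first 6 in genome order. Ehmt2 itself lay in a narrower domain-free run, and Atf7ip in a domain of all 5 sets.

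The lists with the lowest shares were the vomeronasal receptor, 2-cell, long neuronal adhesion and olfactory receptor genes. None of 329 vomeronasal receptor genes and none of 40 genes of the 2-cell list started in a wide region or in any domain-free run. Of the 40, 32 lay in wide runs of all 5 sets, where 6.99% of all protein-coding genes started. Of the vomeronasal receptor genes, 1 started at a chromosome end, outside the stretch between first and last domain. Of 1128 olfactory receptor genes 18 (1.596%) started in 8 wide regions, such as Olfr1417, Olfr1418, Olfr1419 and Olfr1420 together on chromosome 19. Cytochrome P450 genes had 12 of 81 (Cyp2w1, Cyp2s1, Cyp1a2, Cyp1a1), keratins and keratin-associated proteins 26 of 110, among them Krt8 and Krt18, and replication-dependent histone genes 12 of 67, which were all 10 Hist2 and both Hist3 genes. Of the 54 Hist1 genes 30 started in narrower domain-free runs, as did 15.2% of all protein-coding genes. Of the clustered protocadherins, 18 of 21 Pcdhg genes started in a single region of 675.5 kb on chromosome 18, and no Pcdha or Pcdhb gene did. No long neuronal adhesion gene of a list of 26 started in a wide region, and Macrod2 alone started in a narrower domain-free run.

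Imprinted genes, which are expressed from the maternal or the paternal copy, started in wide regions in 13 of 41 cases. These 13 genes lay in 6 regions. The list also holds genes that are not protein-coding, such as Airn and Nespas, so the share of all protein-coding genes is not a like background for it. Ascl2, Cd81, Kcnq1, Cdkn1c, Phlda2 and Nap1l4 started in wide regions on chromosome 7, though not all in the same one. Kcnq1ot1, which is transcribed within Kcnq1, started in bases in a domain of some sets. Gnas and Nespas lay in a region of 200 kb on chromosome 2, Igf2r and Airn in one of 769.6 kb on chromosome 17, H13 and Mcts2 in one of 379.3 kb on chromosome 2, and Zdbf2 in one of 234.5 kb on chromosome 1. These counts describe where genes lie, and lists share regions, so genes of a cluster are not independent.

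**Figure D5:**
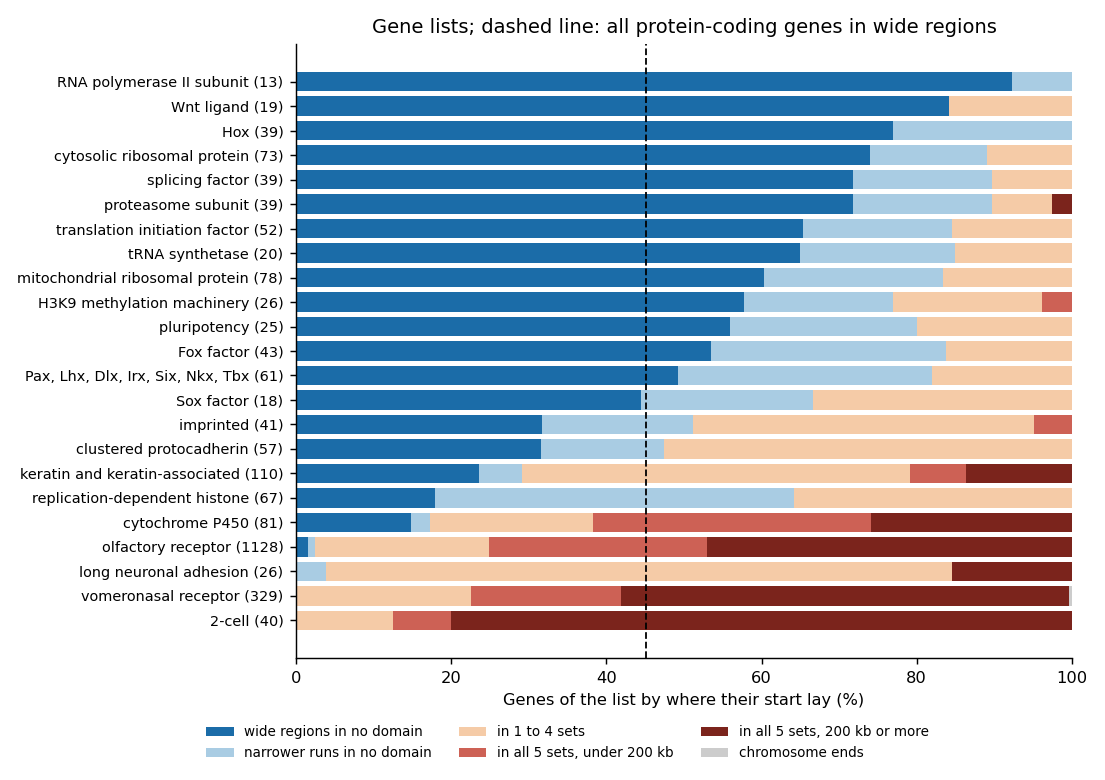
Share (%) of the genes of 23 lists by where their start lay, with the number of genes in brackets; the dashed line is the 45.2% of all protein-coding genes that started in wide regions. RNA polymerase II, Wnt and Hox genes have the longest dark blue bars, and the 2-cell, vomeronasal and long neuronal adhesion lists have none.

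The width limit of 200 kb cut a continuous range. Just inside lay chr2:163997760-164197759, with 6 protein-coding starts including Stk4, chr2:174273431-174473430, the Gnas region with 7, and chr4:155694411-155894410, with 16 including Mrpl20 and Ccnl2, all of 200 kb to the nearest kb. Just outside lay chr8:114448965-114648963, with no protein-coding start, chr16:32284871-32484869, with 4 including Pcyt1a, and chr13:74168061-74367847, with 6 including Sdha. The first 2 of these were 199.999 kb wide and the last 199.8 kb, so the regions on either side of the limit differed by less than a bin.

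A few regions stood apart in their sequence. N made up at least 1% of the bases of 24 regions and up to 24.97%. Repeated 50-mers made up at least 20% in 10 regions, against a median of 2.05%. The highest value was 89.6% in chr14:69346055-69731054 (385 kb), which held Entpd4b, Loxl2 and R3hcc1, followed by 45.7% in chr14:25371361-26306359 (935 kb), with the Duxbl1, Duxbl2 and Duxbl3 genes, and 40.5% in the region of Igf2r. These 10 were picked by this value. The part of read placement in the absence of domains from them was not tested. Depth per region was unknown, since the files hold positions only.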

How the data were processed

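H3K9me2 ULI-NChIP was carried out in mESCs and sorted 2CLCs treated with DMSO or dTAG-13. Per the labels and the study's methods, the authors aligned reads to mm10 with STAR 2.7.10 in a repeat-aware mode and removed duplicates and blacklisted high-signal regions. Coverage was scaled to genome content without chromosomes X and M and averaged in windows on a 5 kb grid. Domains were grown from bins of high log2 ChIP over input ratio to bins of low ratio, and zero-signal locations were ignored. Both limits were percentiles of that ratio, so a domain marks relative enrichment and not a level of H3K9me2. Duplicates were removed with Picard 2.26.0, blacklisted reads with SAMtools 1.14, format conversion used bedtools 2.30.0 and coverage deepTools 3.5.1. R scripts did the binning, and the version given for R scripts elsewhere in the methods is 4.1.2. Whether replicates were pooled is not given in the sources used here. The deposited values are domain starts and ends with a score of 0 throughout, which was not used. Depth and replicate spread are unknown.

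Intervals were computed base by base with Python 3.11.15, numpy 2.4.6, scipy 1.17.1 and numba 0.67.0, and the interval code was tested on simulated domains. mm10 coordinates were read against GRCm38.p6, whose chromosome lengths no domain exceeded, and GENCODE M21. A gene was placed by its annotated 5′ end. Runs with fewer than 200 kb, chromosome X and the stretches before the first and after the last domain were left out. Bases were classed as domain-free (wide or narrower), in 1 to 4 sets, or in all 5 sets. With 1 set per condition no test was possible, so counts and medians are given with the range or SD over 19 chromosomes, which covers variation along the genome and not between cultures. Regions named were the 10 widest, 5 each of lowest and highest GC content and of most protein-coding starts, the 5 widest without one, and 3 on either side of the limit. A region and a sequence that the rules select are not reported here. Genes named were up to 8 nearest to a midpoint and up to 6 in genome order per list. Text on a few further genes, and the regions rich in repeated 50-mers, was chosen after their values were seen. The members and lists were chosen with earlier results of these data known. Alternatives were other minimum widths, leaving out each set, ignoring or widening domains, keeping chromosome ends and leaving out regions with N.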

Additional observations from a re-analysis of the deposited data

How the results depend on the processing

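Across 7 summary values and 11 alternatives, 68 of 77 combinations moved by less than the SD over the 19 chromosomes or, for the number of regions, by less than 1.5 times. A minimum width of 100 kb gave 1744 regions and one of 500 kb 286. With 500 kb the regions covered 10.8% of the span, held 27.7% of protein-coding starts and had a median GC content of 46.9%, against 19.6%, 45.2% and 45.7%. With the 4 sorted sets only, that is without the unnamed set, 1377 regions covered 28.95% of the span, with 25.2% soft-masked bases, 11.3 CpG per kb and 16.1 protein-coding starts per Mb, against 26.8% and 12.1 per kb as medians over regions and 20.0 per Mb. Leaving out a single sorted set gave 961 to 975 regions. Without 2CLC dTAG they covered 21.6% of the span and held 49.2% of protein-coding starts. Without any other single sorted set they covered 19.7% to 20.0% and held 45.3% to 46.0%. No paired analysis was possible because each condition has a single set of positions. The alternatives change sets and widths, and none reaches the spread between cultures or the percentiles behind the domain calls. The cause of these shifts was not tested. No depth can be given for positions.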

Other observations

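Other kinds of genes followed protein-coding genes in part. As a background, 17169 of the 51229 annotated genes of any kind on chromosomes 1 to 19 started in the wide regions. Of 2054 miRNA genes 792 (38.6%) started in the wide regions, and so did 1318 of 2913 antisense transcripts (45.2%), 86 of 190 transcripts from bidirectional promoters (45.3%) and 1223 of 5209 lincRNAs (23.5%). Small nucleolar RNA genes had 388 of 1442 (26.9%) in wide regions and 305 (21.2%) in runs of at least 200 kb in all 5 sets. Processed pseudogenes, copies of messenger RNAs pasted into the genome, had 1658 of 8924 (18.6%) in the wide regions, near the 19.6% of the span these cover, and 1679 (18.8%) in the wide runs of all 5 sets, which cover 17.2%. Unprocessed pseudogenes, which arise by duplication of a gene with its introns, had 111 of 1789 (6.20%) in the wide regions and 704 (39.4%) in the wide runs of all 5 sets.

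Chromosome X was outside the rule. Between its first and last domain it held 251 domain-free runs, 26 of them of at least 200 kb, which covered 9.96 Mb or 5.97% of 166.9 Mb. The lowest autosomal share was the 8.19% of chromosome 3. The widest run on chromosome X was 815 kb. The authors left chromosome X out of the scaling of coverage, and the part of this in the lower share was not tested.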
